A study of Mus musculus with 6 samples.

Results

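The proteasome genes were taken as all symbols of the deposited tables that begin with Psma, Psmb, Psmc, Psmd, Psme, Psmf or Psmg followed by a digit. This rule found 50 of the 23889 symbols listed for every library. They held 31 constitutive subunits of the 20S core and the 19S cap, the germ cell alpha subunit Psma8, 4 immunoproteasome and thymic subunits, 5 activator genes, 1 inhibitor, 7 assembly chaperones, and Psmc3ip, which the rule matched by its symbol alone. Psmc3ip encodes a cofactor of meiotic recombination and is no part of the proteasome.

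Messenger RNA was sequenced in 6 mouse libraries to compare androgenetic haploid embryonic stem cells (AG-haESCs) with other samples. AG-haESCs are stem cell lines derived from embryos made by injecting a sperm head into an oocyte without its spindle, so that their genome comes from sperm. The 3 AG-haESC libraries came from 3 lines, A129-2, AOS-14 and AOS-16, with 1 library each, strain given as F1 hybrid C57BL/6 X DBA/2. They were grown with 2i (inhibitors of MEK and GSK3) in a serum replacement medium over feeders and sorted as G0/G1 haploid cells. The 1 round sperm library carried the same strain label and the same protocol text as the lines, with the cell type given as sperm. The 2 ESC XX libraries were of embryonic stem cells on an Oct-GFP (C57) background grown in serum, LIF and 2i, collected after feeder removal with no sort named. Nothing in the labels says that they were separate cultures, so their spread may be technical. No age was given for the animals behind any library.

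The 26S proteasome is the main protease of the cytosol and nucleus. Its 20S core is a barrel of alpha and beta rings in which 3 beta subunits cut peptide bonds, and its 19S cap binds ubiquitin-tagged proteins, unfolds them with a ring of ATPases and feeds them into the core. Since each core and cap holds every constitutive subunit in fixed numbers, cells usually keep the messenger RNAs of these genes at similar levels. Male germ cells are known for alternative forms, in which Psma8 takes the place of Psma7 in the alpha ring and Psme4 caps the core. Immune cells induce the catalytic subunits Psmb8, Psmb9 and Psmb10 and the activators Psme1 and Psme2 for antigen processing.

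The promoter windows of Psma6 and Psma7 are shown because these 2 alpha ring subunits were the highest and the lowest of the ring in round sperm. Each window is the 250 bases before the transcription start, 5′ to 3′ on the gene's strand, from RefSeq on GRCm38.p6. The Psma6 window is chr12:55398575-55398824 on the plus strand and that of Psma7 is chr2:180042465-180042714 on the minus strand. Capitals mark a CCAAT box.
Psma6: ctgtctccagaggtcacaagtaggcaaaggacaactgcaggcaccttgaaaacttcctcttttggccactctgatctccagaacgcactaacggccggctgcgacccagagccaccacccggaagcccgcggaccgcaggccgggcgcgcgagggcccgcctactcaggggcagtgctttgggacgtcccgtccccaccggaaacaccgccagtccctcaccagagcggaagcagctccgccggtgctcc
Psma7: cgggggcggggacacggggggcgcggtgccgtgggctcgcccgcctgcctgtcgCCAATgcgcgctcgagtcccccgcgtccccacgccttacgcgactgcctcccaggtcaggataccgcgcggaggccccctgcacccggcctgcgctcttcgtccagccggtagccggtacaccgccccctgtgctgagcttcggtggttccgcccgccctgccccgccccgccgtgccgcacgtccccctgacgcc
The CCAAT box of Psma7 lay 196 to 192 bases before the start, and the Psma6 window held none on either strand. A window was found for 42 of the 50 genes. CCAAT, searched on both strands, occurred in 15 of them (35.7%), against 37.5% of 27025 genes with a window. TGACNNNGC, the core of the antioxidant response element to which the proteasome activating factors Nrf1 and Nrf2 bind, occurred in 5 (11.9%), against 11.5% of genes. The cAMP response element TGACGTCA occurred in 0 of 42, against 1.77% of genes. CG dinucleotides numbered 35 in the Psma7 window and 20 in that of Psma6, against a median of 6 over all 32851 windows. Both windows were thus rich in CG, and nothing was drawn from the motifs.

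Levels are given in FPKM, fragments scaled to transcript length and library depth, so that genes can be compared within a library. The FPKM of all genes summed to 509359, 707325 and 546442 in A129-2, AOS-14 and AOS-16, to about 1239220 in round sperm and to 507556 and 507692 in ESC XX. Genes under 200 nt held 12.7% of this sum in AOS-14 and 6.26% in round sperm. From the steps of low values, 1 fragment on a transcript of 1 kb was worth about 0.0514 to 0.109 FPKM, and 11406 to 12515 genes reached an FPKM of 1. The labelled cell types were checked by marker genes, given as the sum of their TPM (FPKM rescaled to the same total in each library). The 8 pluripotency markers summed to 7558 to 8395 TPM in AG-haESCs, 7860 to 7961 in ESC XX and 203 in round sperm. The 10 round spermatid markers summed to 33468 TPM in round sperm and at most 3.32 in the other libraries, and 8 spermatocyte markers to 2373 TPM in round sperm, 78.7 to 131 in AG-haESCs and 29.5 to 32.4 in ESC XX. Mael alone gave 2041 of the 2373 TPM, and without it the other 7 summed to 332 in round sperm, 63.6 to 109 in AG-haESCs and 27.5 to 29.7 in ESC XX.

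In AG-haESCs and ESC XX the 31 constitutive subunits of core and cap stood close together, and in round sperm they did not. The highest of the 31 was 5.66, 6.70 and 6.21 times the lowest in A129-2, AOS-14 and AOS-16, and 4.42 and 4.30 times in the ESC XX libraries. In round sperm the ratio was 109, from Psma7 at 11.2 FPKM to Psmc3 at 1221 FPKM. The SD of log2 FPKM over the 31 genes was 0.58, 0.72 and 0.69 in the lines, 0.52 in each ESC XX library and 1.66 in round sperm. Between 25 and 29 of the 31 lay within 2-fold of their median in each line, 29 and 30 in ESC XX, and 13 in round sperm. Their median itself differed less, at 146, 180 and 153 FPKM in the lines, 119 in round sperm and 140 and 142 in ESC XX. In TPM the median was 287, 255 and 280 in the lines, 96.0 in round sperm and 276 and 280 in ESC XX, so the distance of round sperm in its median depended on the scale. The wide spread of single subunits in round sperm did not, since rescaling a library leaves ratios within it as they are. That spread rests on 1 library and was not set against a replicate.

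The order of the 31 genes also differed. Spearman's rho over the genes, which are not independent and share each library's depth, was 0.82 to 0.98 between AG-haESC lines, 0.81 to 0.91 between lines and ESC XX, and 0.998 within the ESC XX pair. Between round sperm and the lines it was -0.06 to -0.10, and between round sperm and ESC XX 0.03 and 0.04. Psmb3 was the highest subunit in all 5 stem cell libraries. Psmd13 was the lowest in 4 of them, and Psmc2 in AOS-14. All 50 genes together made up 1.05%, 1.00% and 1.04% of the TPM of the lines, 0.602% in round sperm, and 0.997% and 1.01% in ESC XX.

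**Figure D1:**
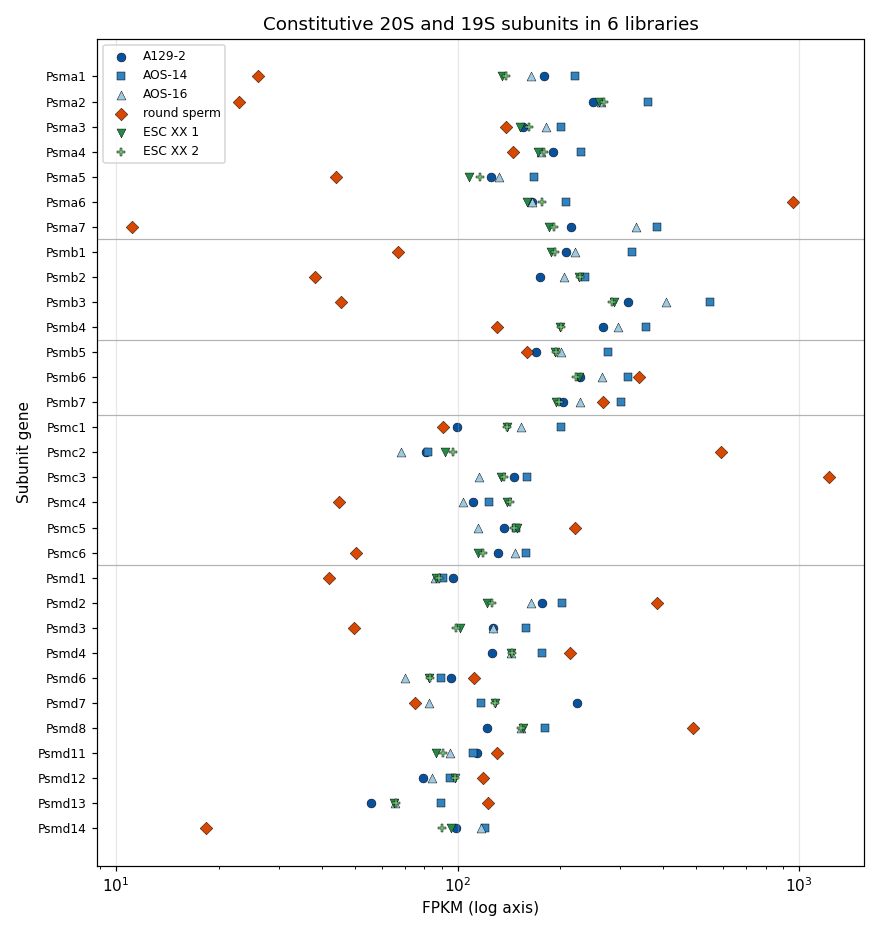
FPKM (log axis) of the 31 constitutive proteasome subunits, 1 row per gene, with 1 point per library; lines separate alpha ring, non-catalytic beta, catalytic beta, 19S ATPase and 19S non-ATPase genes. The 5 stem cell libraries lie close together in most rows, but run from 82.3 to 224 FPKM for Psmd7. The round sperm points run from Psma7 at 11.2 FPKM to Psmc3 at 1221 FPKM.

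Against round sperm, AG-haESCs had higher messenger RNA for much of the 20S core and for the activators Psme1 and Psme2. They had lower messenger RNA for single subunits of the alpha ring and for Psme4, the inhibitor Psmf1 and Psmc3ip. The 17 subunits of the 19S cap went both ways, with 5 called higher and 4 lower. Of the 50 genes 47 reached an FPKM of 1 in at least 1 of the 4 libraries and were tested, and the other 3 were Psmb8, Psmb11 and Psme2b. Calls came from limma on log2(FPKM + 1) and needed a difference of at least 1 with a Benjamini-Hochberg adjusted p below 0.05. By this rule 19 of the 47 were higher, 10 were lower and 18 were not called. Over all 15938 genes tested 61.9% were called, 22.8% higher and 39.1% lower, and over the 5541 with a mean of at least 20 FPKM, a level most proteasome genes reach, 25% were higher and 47.5% lower. The counts given below by role are to be read against these shares. The median difference was 0.55 over the 47 genes and -0.49 over all genes, and 33 of the 47 lay above that median of all genes. The median of all genes turned to 0.49 when each library was rescaled to the same total and to 0.31 with quantile normalization, so the difference relative to it is given beside the main one for each called gene described in full. With 1 round sperm library the p-values measure the spread of the 3 lines alone, which for round sperm is assumed. In bulk libraries fewer cells of a type and less RNA per cell cannot be told apart.

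Without AOS-16 fewer of the proteasome genes were called in each direction, and over all genes fewer were called in each direction as well. Rescaling to the same total gave 26 higher and 6 lower, and quantile normalization 33 higher and 5 lower, while over all genes the share of calls that were higher went from 36.8% to 52.2% and 51.1%. The genes called higher in every alternative that tested them were Psma1, Psma2, Psma7, Psmb2, Psmb10, Psmc4, Psmd5, Psmd14, Psme1 and Psme2. Those called lower in each were Psma6, Psmc2, Psmc3 and Psmf1.

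**Figure D2:**
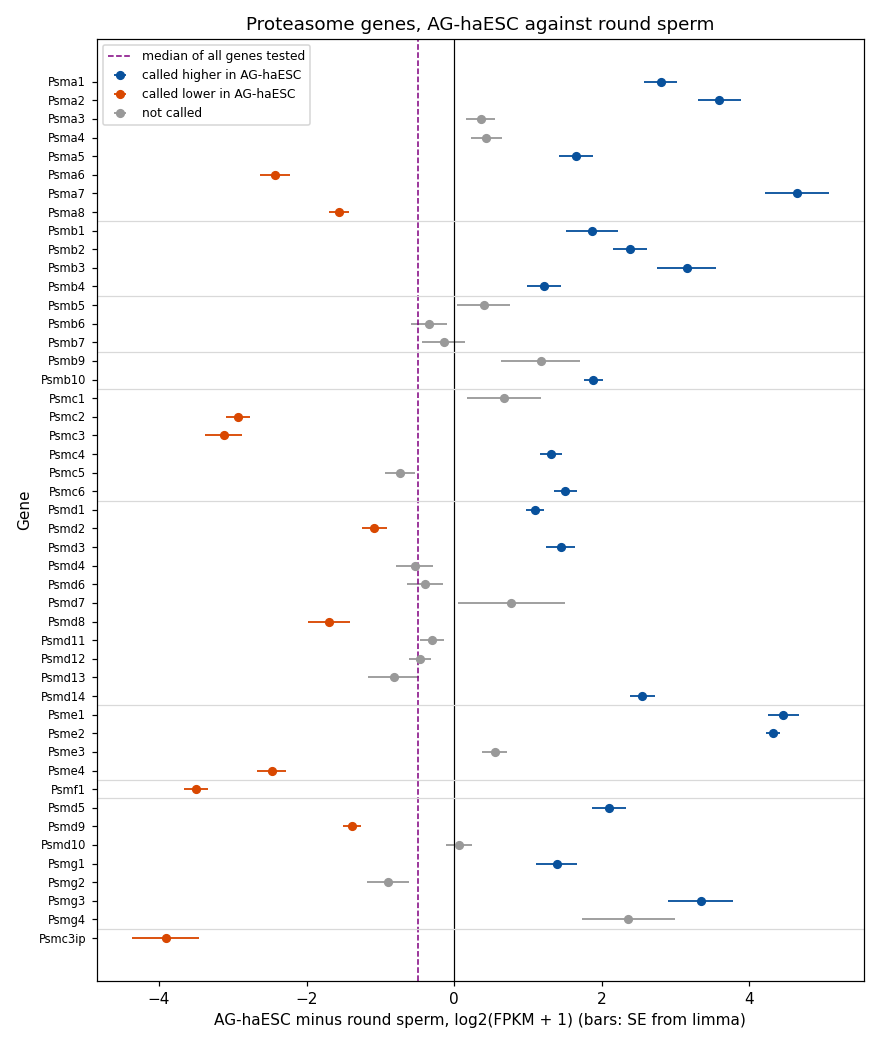
Difference of AG-haESC (mean of 3 lines) and round sperm (1 library) in log2(FPKM + 1) for the 47 tested genes, with bars of 1 SE from limma, ordered by role; the dashed line is the median of all genes tested, -0.49. Points run from -3.91 for Psmc3ip to 4.64 for Psma7, and genes of the alpha ring lie on both sides of the line.

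The alpha ring guards the entrance of the core. Of its 8 genes 4 were higher in AG-haESCs than in round sperm (Psma1, Psma2, Psma5 and Psma7), 2 were lower (Psma6 and Psma8) and 2 were not called (Psma3 and Psma4), although both were higher after rescaling and with quantile normalization. Psma7 had 215, 384 and 333 FPKM in A129-2, AOS-14 and AOS-16 (311 ± 86.6, SD, n = 3), 11.2 in round sperm, and 185 and 191 in ESC XX. Round sperm was far under all 5 stem cell libraries, and the mean of the lines was 27.8 times its level. The log2 difference was 4.64 ± 0.43 (SE, limma adjusted p = 0.00676), or 5.13 relative to all genes, the highest of all 47. Psma8, the counterpart of Psma7 in germ cells, had 39.5 FPKM in round sperm, 12.9, 13.6 and 11.6 in the lines, and 7.41 and 8.91 in ESC XX. It was lower in AG-haESCs by -1.57 ± 0.14 (limma adjusted p = 0.00588; -1.07 relative to all genes), but was not called after rescaling (-0.53) or quantile normalization (-0.45).

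Within the pair the balance turned over. Psma8 made up 78.0% of the TPM of Psma7 and Psma8 together in round sperm, against 5.64%, 3.43% and 3.36% in the lines and 3.85% and 4.46% in ESC XX. In FPKM, Psma8 in round sperm was 3.11 times the mean of the lines, while Psma7 in the lines was 27.8 times its round sperm level. Psma6, another alpha subunit, had 961 FPKM in round sperm and 165, 207 and 165 in the lines, with 159 and 176 in ESC XX. The round sperm level was 5.36 times the mean of the lines, and the difference of -2.43 ± 0.20 (limma adjusted p = 0.00543; -1.93 relative to all genes) was the lowest of the ring. Psma1 and Psma2 went the way of Psma7, at 26.1 and 23.0 FPKM in round sperm and 164 to 221 and 250 to 362 FPKM in the lines.

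The beta subunits without catalytic sites shape the inner rings of the core. All 4 of these genes, Psmb1, Psmb2, Psmb3 and Psmb4, were higher in AG-haESCs, against 22.8% of all genes. Psmb3 had 45.5 FPKM in round sperm, 315, 548 and 407 in the lines and 287 and 284 in ESC XX. It differed by 3.15 ± 0.40 (limma adjusted p = 0.0124; 3.64 relative to all genes), the highest of the group, and lost its call without AOS-16 (adjusted p = 0.0653). Psmb4, the lowest of the group, had 130 FPKM in round sperm, 267, 357 and 294 in the lines and 199.6 and 200.6 in ESC XX. Its difference was 1.21 ± 0.23 (limma adjusted p = 0.0270; 1.71 relative to all genes), and leaving out A129-2 (adjusted p = 0.0537) or AOS-16 (adjusted p = 0.107) ended the call.

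The constitutive catalytic subunits were expressed at high levels everywhere, and 0 of 3 were called against round sperm by limma on deposited FPKM. Psmb5, which carries the chymotrypsin-like site, had 160 FPKM in round sperm, 170, 276 and 200 in the lines and 192 and 194 in ESC XX (0.40 ± 0.36, limma adjusted p = 0.394). It was called higher in AG-haESCs after rescaling (1.49, adjusted p = 0.00729) and with quantile normalization (2.11, adjusted p = 0.00280). Psmb6, with the caspase-like site, had 339 FPKM in round sperm, 229, 315 and 265 in the lines and 226 and 222 in ESC XX. Psmb7, with the trypsin-like site, had 266 FPKM in round sperm, 203, 300 and 228 in the lines and 194 and 199 in ESC XX. The round sperm value lay just under the lines for Psmb5, just above them for Psmb6 and among them for Psmb7. The differences of Psmb6 (-0.34 ± 0.24) and Psmb7 (-0.15 ± 0.29) turned positive after rescaling, to 0.75 and 0.94, and after quantile normalization to 1.37 and 1.58, where both were called.

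Immunoproteasome subunits were low in every library. Psmb8 was listed at 0 in round sperm, with 0.104, 0.297 and 0.446 FPKM in the lines and 1.11 and 1.07 in ESC XX. Psmb9 was also listed at 0 in round sperm, and had 0.517, 1.34 and 2.22 FPKM in the lines and 0.389 and 0.0850 in ESC XX. Psmb10 had 0.430 FPKM in round sperm, from about 5.2 fragments, 4.38, 4.64 and 3.84 in the lines and 4.17 and 5.54 in ESC XX, and was higher in AG-haESCs by 1.88 ± 0.13 (limma adjusted p = 0.00369; 2.38 relative to all genes). Psmb10 was thus the main immuno subunit of the stem cell libraries, still far under the constitutive ones. Psmb8, Psmb9 and Psmb10 made up 0.699% to 0.929% of the summed TPM of the catalytic genes in the lines, 0.0561% in round sperm, and 0.916% and 1.08% in ESC XX. The thymic subunit Psmb11 did not pass 0.449 FPKM in any library, and it was the only member under an FPKM of 1 in all 6 besides Psme2b, a copy of Psme2, which was listed at 0 in all 3 lines and at 0.180 to 0.691 FPKM in the rest.

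**Figure D3:**
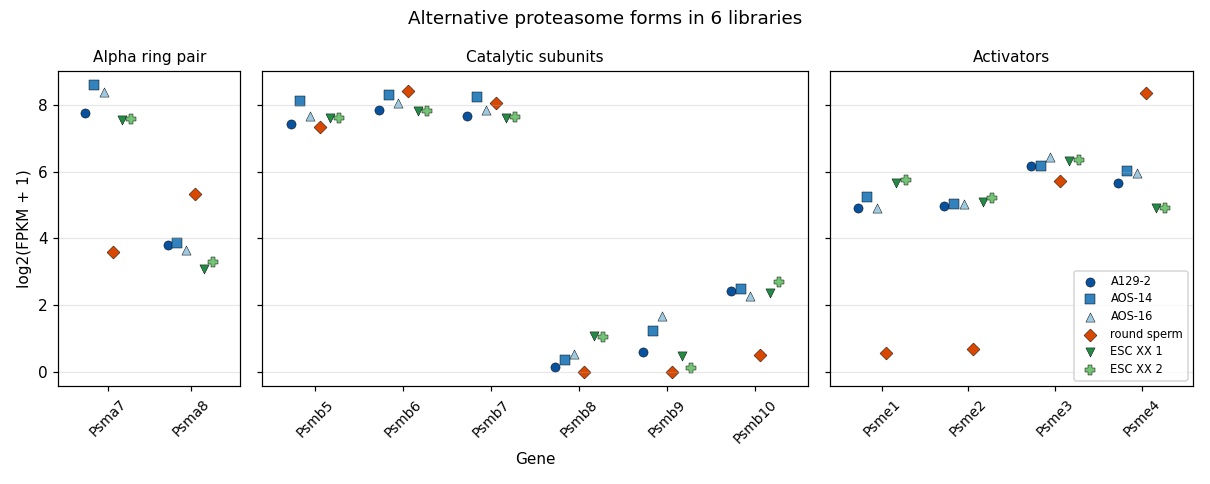
log2(FPKM + 1) of alternative proteasome genes, 1 point per library: the alpha pair Psma7 and Psma8, the constitutive and immuno catalytic subunits, and the activators. Round sperm is high for Psma8 and Psme4, and low for Psma7, Psme1 and Psme2. It lies just under the other libraries for Psmb5, just above them for Psmb6 and among them for Psmb7.

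The ATPases of the 19S cap form the ring that unfolds substrates. Of 6 genes 2 were higher in AG-haESCs than in round sperm (Psmc4 and Psmc6), 2 were lower (Psmc2 and Psmc3) and 2 were not called. Psmc3 had 1221 FPKM in round sperm, the highest of all 50 genes in any library, 146, 160 and 115 in the lines and 134 and 137 in ESC XX. Round sperm stood at 8.69 times the mean of the lines, a difference of -3.12 ± 0.25 (limma adjusted p = 0.00506; -2.63 relative to all genes). Psmc2 followed with 590 FPKM in round sperm, 80.7, 81.7 and 68.3 in the lines and 91.9 and 96.9 in ESC XX (-2.93 ± 0.16, limma adjusted p = 0.00246; -2.43 relative to all genes). The 2 genes exceeded every stem cell library many times over, whereas Psmc6 was lowest in round sperm. Psmc6 had 50.5 FPKM there, 131, 159 and 147 in the lines and 115 and 119 in ESC XX (1.51 ± 0.16, limma adjusted p = 0.00835; 2.0 relative to all genes), and lost its call without AOS-16 (adjusted p = 0.0553).

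Non-ATPase subunits of the cap recognise ubiquitin and remove it, or form the scaffold and lid. Of 11 genes 3 were higher (Psmd1, Psmd3 and Psmd14), 2 were lower (Psmd2 and Psmd8) and 6 were not called. Psmd14, the deubiquitinase that strips ubiquitin chains from substrates, had 18.3 FPKM in round sperm, 99.2, 121 and 117 in the lines and 95.6 and 89.9 in ESC XX. It was the lowest cap subunit of round sperm, and the difference was 2.55 ± 0.17 (limma adjusted p = 0.00341; 3.04 relative to all genes). Psmd8, a lid subunit, had 490 FPKM in round sperm, 122, 180 and 154 in the lines and 156 and 154 in ESC XX. Its difference of -1.70 ± 0.29 (limma adjusted p = 0.0225; -1.21 relative to all genes) was no longer called when AOS-14 (adjusted p = 0.0522) or AOS-16 (adjusted p = 0.0954) was left out, after rescaling (-0.61) or with quantile normalization (-0.04). Psmd2, a scaffold subunit, had 384 FPKM in round sperm and 177, 202 and 164 in the lines (-1.09 ± 0.17, limma adjusted p = 0.0190). Relative to all genes the difference was -0.59, and it was near 0 after rescaling and turned to 0.64 under quantile normalization. Leaving out A129-2 (adjusted p = 0.0742) or AOS-16 (adjusted p = 0.0757) also ended the call of Psmd2.

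Activators cap the core in place of the 19S particle, and of the 4 tested genes 2 were higher in AG-haESCs, 1 was lower and 1 was not called. Psme1 and Psme2 form the activator induced by interferon, Psme3 a nuclear one, and Psme4 the large activator known from spermatids. Psme1 had 0.474 FPKM in round sperm, from about 9.2 fragments, 28.9, 36.9 and 29.1 in the lines and 49.9 and 52.9 in ESC XX. Its difference from round sperm was 4.46 ± 0.21 (limma adjusted p = 0.00183; 4.95 relative to all genes). Psme2 had 0.618 FPKM in round sperm, from about 5.2 fragments, 30.5, 31.7 and 31.7 in the lines and 32.9 and 36.2 in ESC XX (4.32 ± 0.09, limma adjusted p = 0.000343; 4.81 relative to all genes). Both partners of this activator were close to absent in round sperm, with lines at 66.8 and 50.7 times its values, ratios that rest on few fragments. Reads of Psme2 and its copy Psme2b may have been divided between the 2 by the counting.

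Psme4 went the other way. It had 327 FPKM in round sperm, 50, 63.2 and 61.7 in the lines and 29.3 and 29.2 in ESC XX. The difference was -2.47 ± 0.20 (limma adjusted p = 0.00492; -1.98 relative to all genes), and with quantile normalization it was -0.69 and not called. Psme3 had 51.4 FPKM in round sperm, 70.4, 71.5 and 85.3 in the lines and 78.0 and 80.2 in ESC XX, and was not called (0.55 ± 0.17, limma adjusted p = 0.0761). After rescaling (1.62, adjusted p = 0.0336) and with quantile normalization (1.95, adjusted p = 0.0132) Psme3 was called higher in AG-haESCs. Of the summed TPM of the activator genes, Psme4 made up 86.2% in round sperm, 27.8%, 31.1% and 29.7% in the lines, and 15.4% and 14.7% in ESC XX. The lines thus lay between round sperm and ESC XX in the share of Psme4, without overlap. Psme1 and Psme2 together made up 0.288% in round sperm, 29.3% to 33.8% in the lines and 43.6% and 44.9% in ESC XX.

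Psmf1, a protein that binds the core and inhibits it in vitro, had 139 FPKM in round sperm, 12.8, 10.4 and 11.1 in the lines and 9.75 and 8.87 in ESC XX. Round sperm was 12.2 times the mean of the lines (-3.50 ± 0.16, limma adjusted p = 0.00177; -3.0 relative to all genes). Psmc3ip, the meiotic gene, had 354 FPKM in round sperm, 16.0, 31.1 and 23.0 in the lines and 22.3 and 23.8 in ESC XX. Its difference of -3.91 ± 0.46 (limma adjusted p = 0.0106; -3.42 relative to all genes) was the lowest of the 47 and lost its call without AOS-16 (adjusted p = 0.0588). Of 8 spermatocyte markers 5 were also lower in AG-haESCs, against 39.1% of all genes. Dmc1, the recombinase that Psmc3ip assists, had a difference in the other direction (1.22) but was not called. Its levels were low, at 1.14 FPKM in round sperm and 2.69, 5.59 and 4.04 in the lines. The part of spermatocytes in the result was not tested.

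Assembly chaperones build the rings and do not stay in the finished particle. Of 7 genes 3 were higher in AG-haESCs than in round sperm (Psmd5, Psmg1 and Psmg3), 1 was lower (Psmd9) and 3 were not called. Psmg3, which helps assemble the alpha ring, had 1.01 FPKM in round sperm, 15.1, 27.5 and 17.3 in the lines and 9.41 and 11.5 in ESC XX. The difference was 3.34 ± 0.44 (limma adjusted p = 0.0131; 3.83 relative to all genes), with the call lost without AOS-16 (adjusted p = 0.0614). Psmd9, a chaperone of the ATPase ring, had 29.5 FPKM in round sperm, 10.7, 11.4 and 9.92 in the lines and 9.01 and 7.60 in ESC XX (-1.39 ± 0.12, limma adjusted p = 0.00612; -0.90 relative to all genes), and was not called after rescaling (-0.36) or quantile normalization (-0.39). Psmg4, the partner of Psmg3, varied among the lines at 62.4, 146 and 121 FPKM, against 19.4 in round sperm, and was not called (2.36 ± 0.63, limma adjusted p = 0.0571). It was called higher in 5 of 10 alternatives, among them rescaling (3.42, adjusted p = 0.0153) and leaving out A129-2 (2.72, adjusted p = 0.0220).

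The 3 lines agreed closely in most proteasome genes. Over the 45 members whose mean reached 10 TPM, the SD of log2(TPM + 1) across the lines had a median of 0.15. Over all 7883 genes whose mean reached 10 TPM it was 0.32. The 2 sets were not matched in level. The constitutive subunits had medians of 287, 255 and 280 TPM in A129-2, AOS-14 and AOS-16, far above that floor. The part of level in the smaller SD was not tested. Psmg1, a chaperone of the alpha ring, varied least, at 107, 110 and 107 TPM (SD 0.02 on the log2 scale). Psmd7, a lid subunit that pairs with Psmd14, varied most, at 224, 117 and 82.3 FPKM in A129-2, AOS-14 and AOS-16 (SD 0.85 on the log2 TPM scale), with 75.1 FPKM in round sperm and 129 in both ESC XX libraries. The lines thus straddled ESC XX in this gene, A129-2 lying above and the AOS lines below.

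Psmd7 and Psmb10 lie on chromosome 8, where A129-2 stood apart. Over 474 genes of this chromosome the median of A129-2 minus the AOS lines was 1.11 in log2 TPM, against 0.17 over 7054 genes of other autosomes. Psmb10 did not share the pattern to that extent, at 8.59, 6.56 and 7.03 TPM. By FPKM, 38 of the 45 genes were highest in AOS-14, against 43.6% of all genes whose mean reached 10 TPM. By TPM 10 of the 45 were, against 12.1% of all genes, and with genes under 200 nt left out of the total 23 of the 45 were, against 22.2%. The rank of AOS-14 in proteasome levels therefore depended on the scale, while on each scale the share of members highest in AOS-14 exceeded that of all genes. With 1 library per line these differences had no replicate check.

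Against ESC XX, AG-haESCs differed little in proteasome genes, and Psmd10 stood out. Values were compared as log2(TPM + 1) with the median difference of all genes, -0.10, removed. These tables were normalized separately, so no test was run, and a gene counted as different when the means differed by at least 1 and no library overlapped. Of 49 genes compared 2 were higher (Psmd10 and Psmb9) and 1 was lower (Psmb8), against 6.93% and 7.82% of 14251 genes. Over the 5701 genes with a mean of 20 TPM or more, 9.88% differed in either direction, and Psmd10 was the only one of the 3 at that level. The median was 0.07, with a range from -1.0 for Psmb8 to 1.40 for Psmd10. In 20 genes all lines lay above both ESC XX libraries, against 24.9% of all genes, in 10 all lay below, against 25.7%, and 19 overlapped. At 20 TPM or more the shares of all genes were 26.1% above and 24.7% below.

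Psmd10, a chaperone of the ATPase ring that lies on the X chromosome, had 33.0, 38.3 and 30.8 FPKM in the lines, 11.3 and 12.2 in ESC XX, and 32.4 in round sperm. In TPM the mean of the lines was 2.52 times that of ESC XX, a difference of 1.40 ± 0.13 (SD over the lines, n = 3). All 3 lines lay far above both ESC XX libraries. Where round sperm stood depended on the scale, among the lines in FPKM but near ESC XX in TPM, at 26.1 against 64.9, 54.2 and 56.4 in the lines and 22.4 and 24.1 in ESC XX. Accordingly the difference from round sperm was 0.07 and not called by limma on FPKM (adjusted p = 0.756), and 1.13 and called after rescaling (adjusted p = 0.0176). Psmb9 was higher by 1.21 ± 0.67 and Psmb8 lower, at -1.0 ± 0.30, both at the low FPKM given above. The call of Psmb9 was absent without AOS-16 or without ESC XX replicate 2, and that of Psmb8 without A129-2 or without ESC XX replicate 1, which left 1 and 0 genes.

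Smaller differences without overlap were counted by group, to be read against 24.9% of all genes above ESC XX and 25.7% below. Of the 7 chaperones 6 lay above ESC XX in all lines, among them Psmg3 (0.77 ± 0.20) and Psmg4 (0.78 ± 0.46), and Psmd9 overlapped. The lowest of the 6, Psmg1, at 0.07, turned to -0.04 where the median of all genes was not removed, and 16 of the 49 genes in place of 20 then lay above. Of the 14 constitutive core subunits 8 lay above, led by Psma7 (0.59 ± 0.27) and Psmb4 (0.51 ± 0.05), and Psmb2 lay below (-0.25 ± 0.09). In the cap 3 of 17 lay above and 5 below, near the shares of all genes. Its values ran from -0.42 ± 0.16 for the ATPase Psmc4 to 0.44 ± 0.15 for the scaffold subunit Psmd2. The activators moved in opposite directions, with Psme4 above (0.88 ± 0.17) and Psme1 below (-0.79 ± 0.06). Without AOS-14, 16 genes lay below ESC XX in place of 10, against 32.5% of all genes. Without A129-2, 30 lay above in place of 20, against 34.8%.

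**Figure D4:**
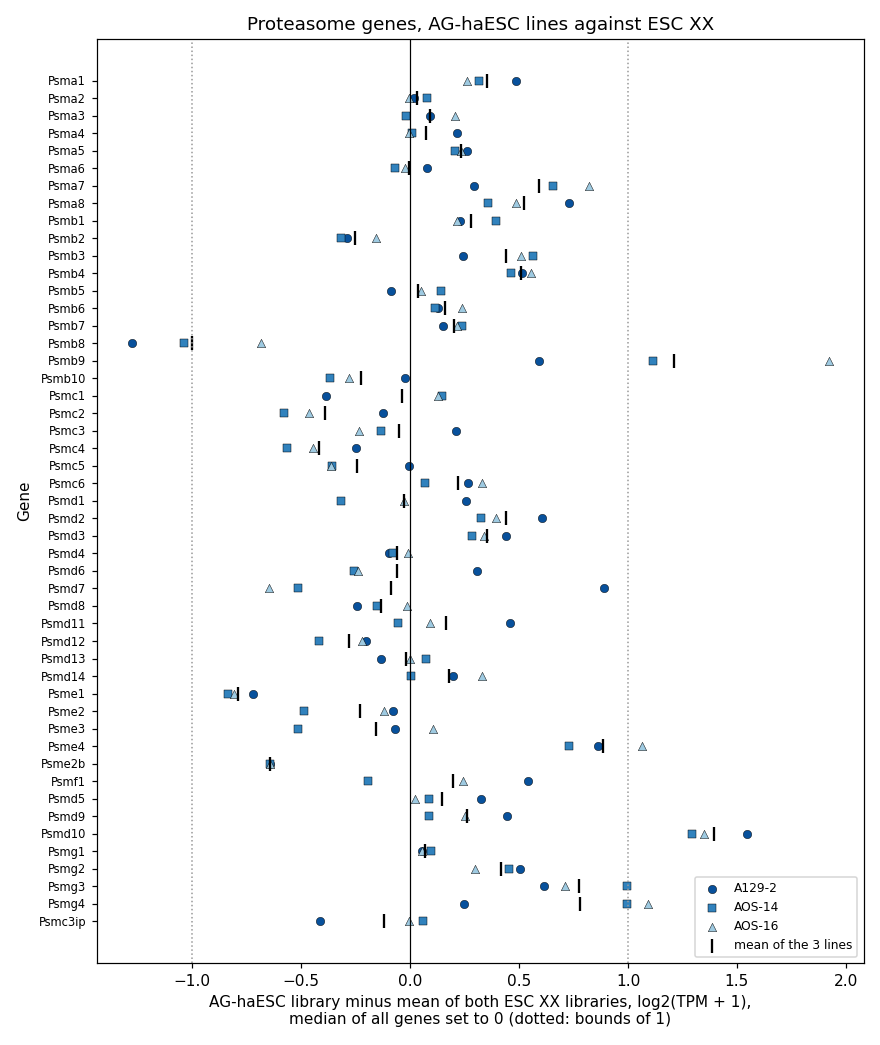
Each AG-haESC line minus the mean of both ESC XX libraries in log2(TPM + 1), with the median difference of all genes set to 0, for 49 genes; black marks are means of the 3 lines and dotted lines the bounds of 1. Most genes lie within the bounds, Psmd10 and Psmb9 have means above 1, and Psmd7 spreads most widely across the lines at high expression.

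Feeder fibroblast markers differed between the same groups. The 10 markers summed to 412 to 676 TPM in the lines, 3402 and 3408 in ESC XX and 12.8 in round sperm. In the lines 9 of 10 were lower than in ESC XX, against 7.82% of all genes. The 7 leukocyte markers summed to 59.5 to 136 TPM in the lines, 111 and 121 in ESC XX and 1.35 in round sperm. Laptm5 alone gave 70.6, 42.4 and 114 TPM in A129-2, AOS-14 and AOS-16, and 70.8 and 65.1 in ESC XX. Of 5 compared with ESC XX 1 was lower and 0 higher, against 7.82% and 6.93% of all genes. The lower one, Lyz2, was listed at 0 in all lines, with 14.7 and 10.6 TPM in ESC XX. The defining leukocyte gene Ptprc was listed at 0 in all lines and at most 0.203 FPKM elsewhere. Sums of the Sertoli and Leydig markers did not pass 9.23 TPM in any library. The part of these cells in the differences of Psme1, Psmb8 and the other genes was not tested.

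Genes that work with the proteasome were read from lists of their own. Of 10 partner proteins outside the naming rule 3 were higher and 3 lower in AG-haESCs than in round sperm, against 22.8% and 39.1% of all genes. Pomp, the maturation protein that guides beta ring assembly, was the highest (1.76 ± 0.39, SE), at 51.9 FPKM in round sperm and 147, 243 and 157 in the lines. Akirin2, which brings proteasomes into the nucleus, was the lowest (-2.46 ± 0.14), at 256 FPKM in round sperm and 50, 45.4 and 42.3 in the lines. Against ESC XX 1 of the 10 was higher and 0 lower, against 6.93% and 7.82% of all genes. The 1 was AI314180, the adaptor also known as Ecm29, by 1.05.

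Of 7 ubiquitin and ubiquitin-activating genes 3 were higher and 1 was lower than in round sperm, to be read against the same shares of all genes, 22.8% and 39.1%. Rps27a, which encodes ubiquitin fused to a ribosomal protein, was the highest (3.12 ± 0.32, SE). Uba1y, the Y-linked activating enzyme, was the lowest, with 17.5 FPKM in round sperm, 0.374 in AOS-14 and a listing of 0 in the other 4 libraries. Among 9 shuttle and unfoldase genes, which bring tagged proteins to the cap, 2 were higher and 4 lower, against those same shares. Ubqln2, a shuttle factor, was at 0.176 FPKM in round sperm and 21.1 to 30.3 in the lines, and Bag6, a chaperone of misplaced membrane proteins, at 680 FPKM in round sperm and 53.9 to 82.0 in the lines.

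Nrf1 (Nfe2l1) raises proteasome transcription when the protease falls short, after it is deglycosylated by Ngly1 and cut by Ddi2. The list covered Nrf1 and Nrf2 control together, with Nfe2l2 (Nrf2, called higher) and Keap1 (called lower) in it. Of its 8 genes 5 were higher and 2 lower than in round sperm, against 22.8% and 39.1% of all genes. Nfe2l1 had 12.4 FPKM in round sperm, 46.7, 51.7 and 62.5 in the lines and 49.1 and 49.6 in ESC XX. Ngly1 had 335 FPKM in round sperm, 4.21, 3.27 and 3.09 in the lines and 2.02 and 1.92 in ESC XX, the lowest difference of the list (-6.22 ± 0.20). The highest was Mafg, a partner of Nrf1 on DNA, at 4.27 ± 0.24. Ddi2 had 4.06 FPKM in round sperm and 29.3, 21.6 and 17.6 in the lines (2.21 ± 0.36, limma adjusted p = 0.0204), the same direction as Nfe2l1 and opposite to Ngly1.

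Of 8 tested antigen processing genes, which use proteasome products, 2 were higher and 1 was lower than in round sperm, against 22.8% and 39.1% of all genes. Irf1, an interferon response factor, was the highest (3.12 ± 0.13), and Tapbp, which loads peptides, had the lowest difference (-1.50 ± 0.46) without a call. Against ESC XX 2 of 10 were lower in the lines and 0 higher, against 7.82% and 6.93% of all genes. B2m, the light chain of class I molecules, was at 26.6, 48.3 and 25.3 FPKM in the lines and 232 and 234 in ESC XX, and H2-D1 at 12.7, 4.45 and 4.07 against 33.8 and 31.5. The 11 genes of the list summed to 141 to 149 TPM in the lines, 607 and 608 in ESC XX and 62.2 in round sperm.

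Some values can hold reads of other genes. Matches of at least 95% identity over 300 nt to another gene, on either strand, were found for 13 of the 50 genes in a GRCm38 annotation. For 6 of these a matched gene has values here, among them Psma3 with Gm609, Psmd11 with A730017L22Rik, and Psme2 with Psme2b. The matches of Psmd13 to Sirt3 and of Psmc3ip to Mlx were to genes whose exons overlap theirs. These 13 and 6 therefore hold overlaps as well as copies. For 10 genes an exon overlaps one on the opposite strand, among them Psmc3 with Slc39a13, Psmb7 with Nek6, Psmb9 with Tap1, Psme1 with Emc9, Psmd13 with Sirt3 and Psmc3ip with Mlx. The library kit keeps strand, but whether the counting used it is not given in the sources used here. Psma6, Psma7, Psmc2, Psme4 and Psmf1 had neither such a match nor such an overlap.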

How the data were processed

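RNA sequencing values of 3 AG-haESC lines, 1 round sperm and 2 ESC XX libraries were analysed. The authors aligned reads with TopHat2 2.0.13 and made FPKM with Cuffdiff 2.2.1, on build mm9, as the submitters' processing notes state; the use of strand and the scaling between libraries are not stated in the sources at hand. The deposited FPKM of the ESC XX libraries are named so in their 2 tables; the unit of the table shared by the other 4 libraries was taken from the tool and the values. The deposited files hold no read counts, and depth was estimated from the steps of low values.

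AG-haESC and round sperm were compared with limma 3.58.1 (R 4.3.3, mean-variance trend) on log2(FPKM + 1), for genes at FPKM 1 or more in at least 1 of 4 libraries (15938 genes), two-sided, with 2 residual degrees of freedom. A call needed a Benjamini-Hochberg adjusted p under 0.05 and a difference of at least 1. Differences on this scale understate changes of low genes. TPM was FPKM rescaled to the same total per library, and AG-haESC and ESC XX were compared in log2(TPM + 1) by size and overlap, without a test. The fits were tested on simulated data. The proteasome genes and all gene lists were chosen with earlier results of these data known. Genes given in every library were, by rule, the highest and lowest difference of each role in both comparisons, the alternative forms and their counterparts, Psmc3ip and members on chromosome 8. Psma1, Psma2, Psmc2, Psmg4 and, outside the rule for lists, Nfe2l1, Ddi2, Dmc1 and H2-D1 were added after their values were seen. Promoters came from RefSeq (GRCm38.p6), and lengths, chromosomes, copies and overlaps from a GRCm38 annotation matched by symbol, another build than mm9. Alternatives were another pseudocount, rescaling, leaving out genes under 200 nt, quantile normalization, other filters, no trend, and leaving out each library.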

Additional observations from a re-analysis of the deposited data

How the results depend on the processing

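Against round sperm, the 19 genes called higher became 33 with quantile normalization and 11 to 18 with a line left out. The 10 called lower became 6 after rescaling, 6 with genes under 200 nt left out as well, 5 with quantile normalization, and 7 to 10 with a line left out. Over all genes, fewer were called in each direction with any line left out. The sign turned in an alternative for 10 of the 18 proteasome genes not called and for 1 of the 10 called lower. Turning positive were Psmb6 (0.75 rescaled, 0.72 also without short genes, 1.37 quantile), Psmb7 (0.94, 0.91, 1.58), Psmd12 (0.62, 0.59, 1.21) and Psmd2 (0.64 quantile). So did, rescaled and quantile, Psmc5 (0.35, 1.05), Psmd4 (0.55, 1.23), Psmd6 (0.68, 1.27), Psmd11 (0.78, 1.40), Psmd13 (0.26, 0.87) and Psmg2 (0.17, 0.54). Psmd10 ranged from -0.020 (without AOS-14) to 0.13 with 1 line left out. Against ESC XX, the 2 genes higher became 1 on deposited FPKM, 1 with a filter of 5 TPM, and 1 to 3 with a library left out; the 1 lower became 2 with a pseudocount of 0.1, 0 on deposited FPKM, 0 with the filter of 5 TPM, which removes Psmb8, and 0 to 1 with a library left out. The 10 genes below ESC XX without overlap became 10 to 16 with a library left out. The share of TPM in proteasome genes, 1.03% as a mean of the lines, became 1.08% without short genes. The cause of the other changes was not tested. For the genes chosen for description, not all members, 279 alternative values against round sperm kept direction and side of the threshold. Of the rest, 24 lost the call, 14 gained it and 11 changed sign. No paired analysis was possible because round sperm has 1 library and the AG-haESC numbers name lines that share nothing with the ESC XX numbers. Depth limits Psmb8, Psmb11 and Psme2b in all libraries, and Psmb10, Psme1 and Psme2 in round sperm. It also limits Psmb9, though less in AOS-14 and AOS-16, at about 70.6 and 63.1 fragments.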
